A study of Homo sapiens with 4 samples.

Results

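The cytosolic ribosomal protein genes were described in T47D cells, a human breast cancer line that expresses the progesterone receptor (PR), after treatment with the synthetic progestin R5020. The genes were taken by symbol, as *RPL* or *RPS* followed by a number with or without a final A, X or L, together with *RPLP0*, *RPLP1*, *RPLP2* and *RPSA*. This gave 81 of the 23287 gene symbols in the RNA-seq data, with 141 of the 41138 transcripts. Of these genes 32 encode proteins of the small (40S) subunit and 49 encode proteins of the large (60S) subunit. The RNA-seq experiment set poly(A)+ RNA after 3 h in 10 nM R5020 beside poly(A)+ RNA after 3 h in the vehicle, ethanol (EtOH), and each condition had 1 library. The ChIP-seq experiment mapped PR binding in 1 library, made after 1 h in 10 nM R5020. All cells came from the same line and were kept in charcoal-stripped serum before treatment, so the EtOH cells were also deprived of serum steroids. By the study's methods, the time in this serum was longer for ChIP than for RNA isolation. No library had a replicate. Each difference below therefore compares 2 libraries, no spread between cultures is known and no p-value is given. In bulk RNA, a change in the cells that make up a culture and a change in RNA per cell cannot be told apart.

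Each ribosome carries about equal numbers of its proteins, and their genes are among the most strongly expressed in dividing cells. Most of their mRNAs begin with a C followed by a run of pyrimidines, the 5′ terminal oligopyrimidine (TOP) tract, through which mTOR signaling and the protein LARP1 control their translation. The mRNAs are short, and most of the genes have many processed copies elsewhere in the genome, which makes reads hard to assign.

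RefSeq start positions (assembly GRCh38.p14) were matched for 64 of the 81 genes. A TOP start, here a C at the first base followed by at least 4 pyrimidines, was present in 46 of the 64 genes (71.9%), against 7.70% of the 7801 retained and matched genes (members included). The starts of the genes on which the results below turn are shown as 10 bases before and 20 bases from the start, on the strand of the gene, with the start C and its pyrimidine run in capitals. The first 4 belong to the genes with the highest levels, the next 5 to the genes that fell most and the last to the gene with the largest increase.
RPL38, chr17:74203668-74203697, + strand: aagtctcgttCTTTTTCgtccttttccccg
RPS27, chr1:153990752-153990781, + strand: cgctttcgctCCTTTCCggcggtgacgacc
RPS24, chr10:78033853-78033882, + strand: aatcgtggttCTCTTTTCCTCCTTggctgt
RPL26, chr17:8383174-8383203, − strand: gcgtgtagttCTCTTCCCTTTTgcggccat
RPL21, chr13:27251548-27251577, + strand: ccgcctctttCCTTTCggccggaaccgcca
RPS15, chr19:1438386-1438415, + strand: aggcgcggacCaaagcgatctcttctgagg
RPL18, chr19:48619159-48619188, − strand: agcccgttctCTCTTTCCggacctggccga
RPS19, chr19:41860245-41860274, + strand: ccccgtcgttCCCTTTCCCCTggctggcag
RPLP2, chr11:809957-809986, + strand: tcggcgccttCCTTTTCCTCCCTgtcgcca
RPSA, chr3:39406710-39406739, + strand: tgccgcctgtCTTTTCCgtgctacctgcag
Of these 10 starts, only the one listed for *RPS15* held no TOP tract. The tract was 6 bases long in *RPL21* and 14 in *RPS24*, and between these in the others but *RPS15*.

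The levels are FPKM, which scale the fragments of a transcript to its length and to the library total, summed over the transcripts of a gene. A gene was retained if its FPKM was at least 1 in at least 1 condition, which held for 11018 genes and for 78 of the 81 ribosomal protein genes. The coverage and lengths corresponded to 1.76e+07 fragments in EtOH and 1.81e+07 in R5020, summed over the listed transcripts. The study itself reports a larger number of unique paired-end reads for each library, with more for EtOH than for R5020. These sums are therefore not a measure of library depth. The luminal marker *KRT19* stood at 608 in EtOH and 477 in R5020, *PGR*, the gene of the PR itself, was at 23.7 and 15.3, and *ESR1* was at 17.2 and 10.9. The keratin genes *KRT8* and *KRT18* were listed at 0 in EtOH with a status of failed estimation and at 285 and 174 in R5020. No transcript of a ribosomal protein gene carried that status. The blood markers *PTPRC*, *CD3E* and *CD79A* were at 0.0230 or below in both libraries, and of the fibroblast markers *COL1A1* was at 5.12 and 3.31, *DCN* at 0.284 and 0.154, and *COL1A2* was listed at 0.

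The ribosomal protein genes together were somewhat lower after R5020. Their summed FPKM was 15507.5 in EtOH and 13305.4 in R5020, which is 85.8% of the EtOH value. The 40S genes went from 5439.9 to 4630.4 (85.1%) and the 60S genes from 10067.5 to 8675 (86.2%), so the subunits were lower by a similar proportion. Weighted by transcript length, the set took up 2.85% of the summed FPKM in EtOH and 2.37% in R5020. Of the 100 genes with the highest FPKM, 37 in EtOH and 28 in R5020 were ribosomal protein genes, and among genes with a main transcript of at least 200 nt these numbers were 40 and 35. The median FPKM of the 78 retained members was 154 in EtOH and 129 in R5020, against 5.09 and 5.32 for all retained genes.

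**Figure D1:**
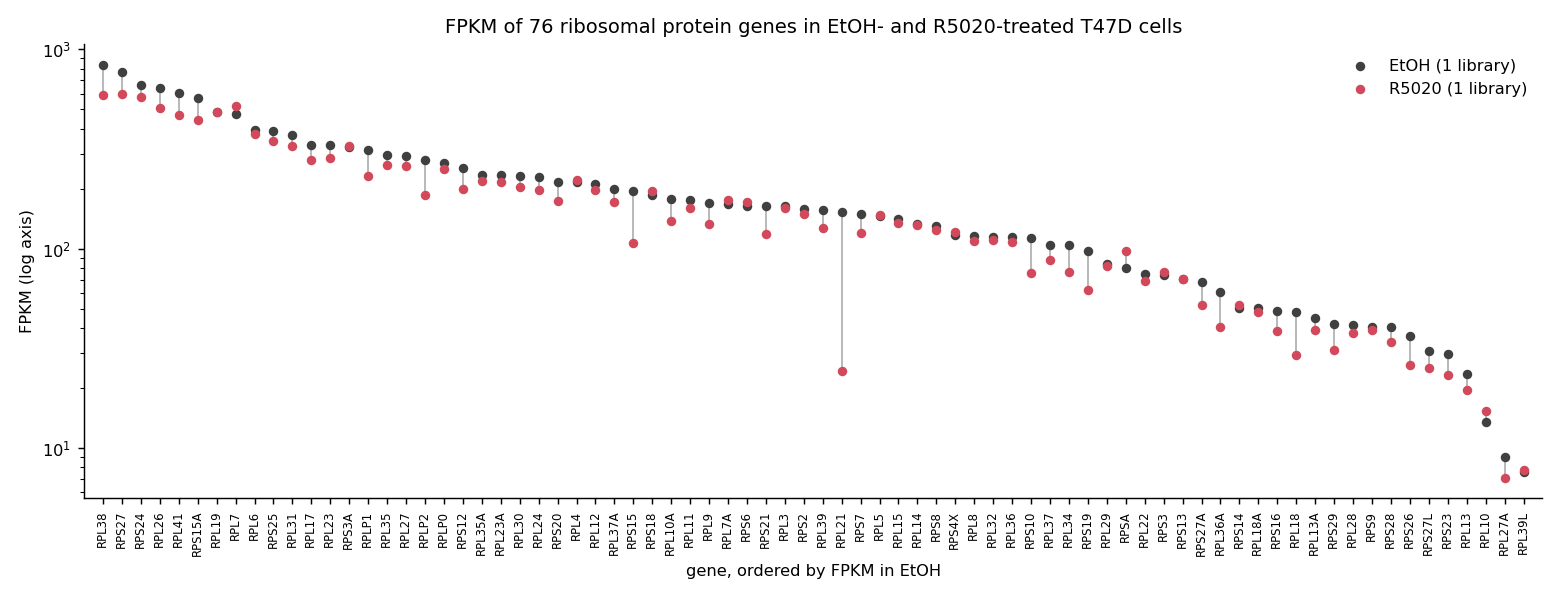
FPKM (log axis) of 76 of the 78 retained ribosomal protein genes, ordered by FPKM in EtOH, with 1 point per library (dark EtOH, red R5020). The levels span from 7.54 to 838 in EtOH, most red points lie slightly below the dark ones, and *RPL21* is the one gene with a long gap.

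Listed FPKM was far from equal across the set, although the proteins are needed in like numbers. The authors kept only uniquely placed reads, and how much of each mRNA allows such placement was not tested. Without the 4 paralogs *RPL3L*, *RPL10L*, *RPL39L* and *RPS27L*, the highest level was 93.0 times the lowest in EtOH and 83.4 times in R5020. The lowest of these core genes was *RPL27A*, whose long listed transcript is described below. FPKM exceeded 100 for 53 genes in EtOH and for 49 in R5020. The order of the genes was nearly the same in both libraries (Spearman's rho 0.970 over 78 genes, which share both libraries and the same transcript models, as a description).

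The highest mean level was that of *RPL38*, a small 60S protein with known roles in the translation of particular mRNAs, which stood at 838 in EtOH and 591 in R5020. *RPS27* was at 773 and 594. *RPS24*, a 40S protein needed for maturation of the 18S rRNA, was at 666 and 580. All 3 were lower in R5020. *RPL26*, which lies near the exit of the peptide tunnel, was at 641 and 508. *RPL41*, the smallest ribosomal protein, was at 601 and 470. *RPS15A* was at 568 and 443. These genes were again lower in R5020, while the next, *RPL7* and *RPL19*, were not. *RPL7* was at 472 and 521, and *RPL19* at 482 and 484. *RPL6*, at 395 and 374, and *RPS25*, a 40S protein known for its part in initiation at internal ribosome entry sites, at 387 and 348, completed the 10 highest.

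At the lower end, *RPL3L*, the muscle paralog of *RPL3*, was listed at 0 in both libraries, and *RPL10L*, the testis paralog of *RPL10*, was at 0.111 and 0.0360. *RPL39L*, a further paralog of restricted expression, was retained at 7.54 and 7.80, and *RPS27L*, a paralog of *RPS27*, at 30.9 and 25.2. The core genes *RPL27A*, *RPL13* and *RPL10*, among the lowest, had long listed transcripts. *RPL27A* had 4879 nt and an FPKM of 9.003 and 7.12. *RPL13* had 4499 nt and 23.5 and 19.5, and *RPL10* had 2318 nt and 13.5 and 15.4. The median length over all retained members was 709 nt, and longer main transcripts went with lower FPKM (rho -0.401 in EtOH and -0.324 in R5020 over 78 genes, as a description). FPKM is divided by the listed length, so a listed length beyond that of the mRNA present lowers it.

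The change of a gene was taken as the log2 ratio of R5020 to EtOH after adding 1 to each FPKM. The median over the 78 members was -0.19, with quartiles of -0.35 and -0.04, against 0.0053 over all retained genes. The change was below 0 for 63 of the 78 genes (80.8%), against 49.1% of all retained genes. By counting error alone, 56 members were more than 2 standard errors below 0, 9 were as far above it and 13 were within that range of 0. These are 71.8% below and 11.5% above, where the shares in 1340 other genes with a mean FPKM of at least 20 were 36.3% and 40.7%. The standard error of the log2 ratio, from the fragments behind each value, was between 0.015 and 0.13 with a median of 0.029. It covers counting only and not the difference between cultures.

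Few single genes changed by much. No member was at least 1.5-fold higher in R5020, where 7.67% of all retained genes were, and 5 of the 78 (6.41%) were at least 1.5-fold lower, where 4.14% were. *RPL21*, a 60S protein, fell from an FPKM of 153 to 24.3 (log2 -2.60) and is taken up below, since a second symbol covers the same gene. *RPS15*, a 40S protein at the decoding side of the subunit, fell from 194 to 106 (-0.87). *RPL18*, a 60S protein, fell from 48.4 to 29.3 (-0.71). *RPS19*, the 40S gene most often altered in the inherited red cell disorder Diamond-Blackfan anaemia, fell from 97.1 to 61.8 (-0.64). *RPLP2*, of the stalk that recruits translation factors, fell from 280 to 185 (-0.59). *RPS10* (-0.58) and *RPL36A* (-0.57) lay just inside the threshold of 0.585, and with a pseudocount of 0.1 or with a rescaling of R5020 *RPS10* passed it. The 4 changes other than that of *RPL21* were small beside it, and *RPS10*, *RPL36A* and *RPL38* (-0.50) followed them without a gap.

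All increases stayed under 1.5-fold. *RPSA*, which is also known as a laminin receptor, was at 79.6 in EtOH and 97.8 in R5020 (0.29). *RPL10*, where the subunits join, was 0.17 higher. *RPL7* was 0.14 higher and *RPS18* went from 185 to 195 (0.08). *RPS6*, the 40S protein phosphorylated downstream of mTOR, was at 164 and 172 (0.07).

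**Figure D2:**
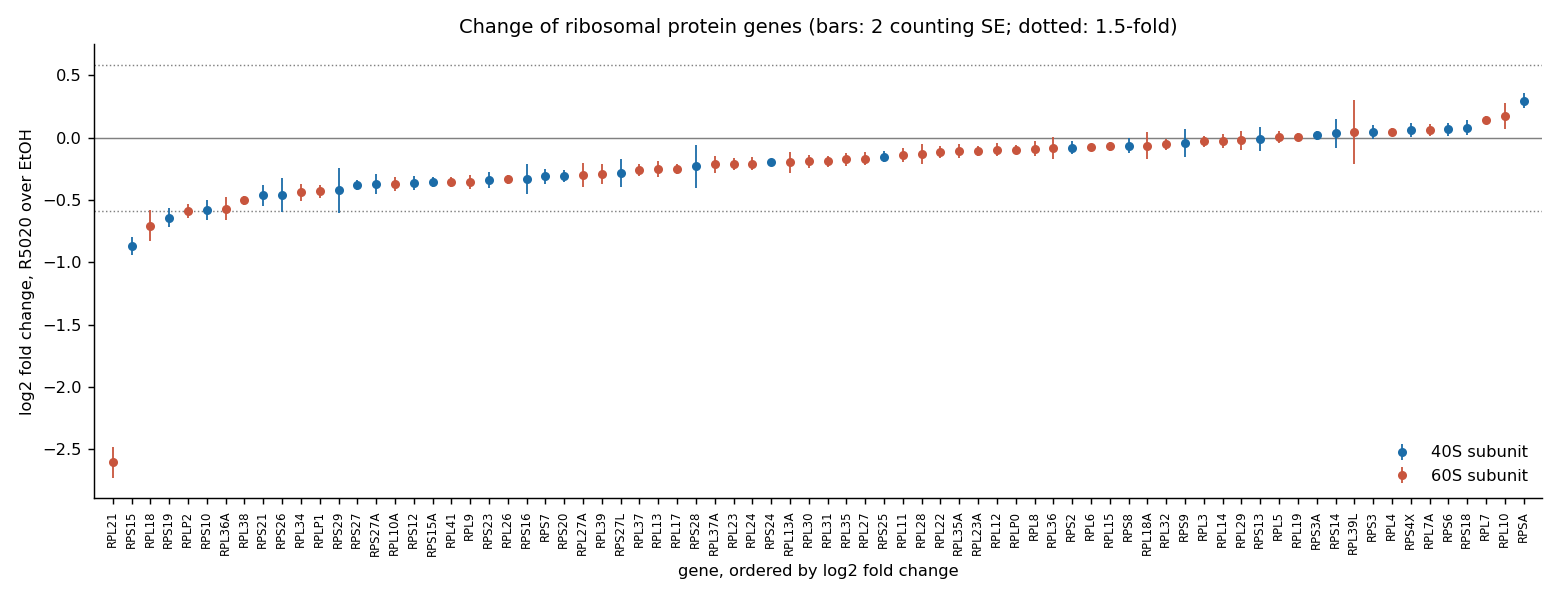
Log2 fold change, R5020 over EtOH, of 76 of the 78 retained genes in order, coloured by subunit, with bars of 2 counting standard errors and dotted lines at 1.5-fold. The 5 genes at least 1.5-fold lower lie below the lower dotted line, 62 lie below 0, and both subunits are spread along the whole order.

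By function, the P stalk kept the smallest proportion of its summed FPKM among the 5 groups described here. *RPLP0*, *RPLP1* and *RPLP2* together went from 861 to 668 (77.6%), with *RPLP1* at 312 and 232 (-0.43) and *RPLP0* nearly level at 269 and 251 (-0.10). *RPL5* and *RPL11*, which carry the 5S rRNA into the subunit and bind MDM2, kept 95.05% of their sum. *RPL5* was at 146 and 147, and *RPL11* at 176 and 160. The 8 genes around the tunnel exit kept 87.8%, with 7 of the 8 below 0, and their log2 changes had an SD of 0.11. The 8 genes of the mRNA channel and decoding site kept 87.2%, and here *RPS15* was the one gene past 1.5-fold. A chosen list of genes of Diamond-Blackfan anaemia, which need not hold all of them, had 14 retained genes. Of these 14 genes, 13 were below 0, and 1, *RPS19*, was past 1.5-fold. Their sum was 83.1% of that in EtOH. The groups were small, and their members were spread through the range of the whole set.

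The spread of the changes was set mainly by 1 gene. The SD of the log2 change was 0.35 over the 78 members and 0.22 without *RPL21*. The interquartile range was 0.305 in the members, 0.343 in the 1375 other genes with a mean FPKM of at least 20, and 0.364 in all retained genes. Within 1.25-fold were 70.5% of the members and 71.6% of those 1375 genes, and within 1.5-fold 93.6% and 85.4%. By these measures the middle of the set was about as spread as that of other well expressed genes. The SD was 0.19 over 36 proteasome subunit genes, 0.26 over 76 mitochondrial ribosomal protein genes and 0.25 over 73 genes of oxidative phosphorylation.

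Transcript length moved with the change. Members with main transcripts from 300 to below 500 nt had a median change of -0.26, and all 14 were below 0. The 63 other retained genes of that length had a median of -0.38. From 500 to below 700 nt the medians were -0.21 in 22 members and -0.14 in 162 other genes, and from 700 to below 1000 nt -0.08 in 24 members and -0.13 in 446 other genes. The 9 members from 1000 to below 1500 nt had a median of -0.03, with -0.05 in 1024 other genes. In each of these classes the medians of members and others lay within 0.12 of each other. At 1500 nt and above the medians were -0.18 in 8 members and 0.02 in 9108 other genes, and 7 of these members, such as *RPS23* with 3314 nt (29.8 and 23.3) and *RPL37* with 1570 nt (105 and 87.4), were below 0. The remaining member, *RPS29* with 296 nt, went from 41.7 to 30.9 (-0.42). The rho between length and change was 0.355 over the 78 members and 0.306 over 1314 other genes with a mean FPKM of at least 20 and at least 200 nt. The median main transcript was 709 nt in the members and 2910 nt in the other retained genes. All these lengths are the listed ones, which can exceed that of the mRNA present. *RPL27A* and *RPL13*, with the long listed transcripts given above, fall in the longest class.

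When the median change of the other genes of the same length class was subtracted, the median of the members was -0.0012, with 40 genes below 0 and 38 above. This includes *RPS29*, for which the 137 other retained genes under 300 nt, with a median of 0.11, were the class. Only *RPL21* and *RPS15* were then at least 1.5-fold lower. The part of length in the lower level of the set was not tested beyond this subtraction, which also used the listed lengths. GC content of the GENCODE transcripts, which differ in part from the deposited ones, moved with the change in 1190 other genes (rho -0.309) and hardly in the members (0.0411). Among retained genes of at least 300 nt, the median changes in members and others were -0.22 and 0.08 below 45% GC. They were -0.15 and 0.04 from 45 to below 50%, and -0.20 and -0.03 from 50 to below 55%. From 55 to below 60% they were -0.13 in 9 members and -0.09 in others. At 60% and above they were -0.09 in 4 members and -0.14 in others.

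Genes that share their extent with a second symbol made up part of the outliers. *RPL21P28* is listed at chr13:27825693-27830699 (hg19), inside *RPL21* at chr13:27825692-27830702, with transcripts of 562 and 566 nt. *RPL21P28* was listed at 0 in EtOH and was at an FPKM of 124 in R5020, while *RPL21* was at 153 and 24.3. The sum of both was 153 in EtOH and 148 in R5020 (log2 -0.04), so the level over the gene was nearly equal in the 2 libraries and its split between the symbols was not. Likewise *RPL13AP5* is listed over *RPL13A* on chromosome 19. *RPL13A* was at 44.97 and 39.0, *RPL13AP5* at 57.6 and 61.3, and the sum at 103 and 100.3 (-0.03). RefSeq (GRCh38) lists both copies on a different chromosome from the one deposited here. The levels of these 4 symbols, taken singly, are therefore uncertain.

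Read-through symbols covered 3 further members. *RPS10* was at 114 and 75.6 while *RPS10-NUDT3* was at 5.99 and 9.70, and their sum went from 120 to 85.3 (-0.48). *RPL36A* was at 60.6 and 40.5 while *RPL36A-HNRNPH2* was at 7.17 and 10.4, and their sum went from 67.8 to 51.0 (-0.40). In both pairs the read-through symbol was higher and the ribosomal protein gene lower in R5020, and the sum was still lower. *RPL17* was at 333 and 279 with *RPL17-C18ORF32* listed at 0 in both libraries.

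**Figure D3:**
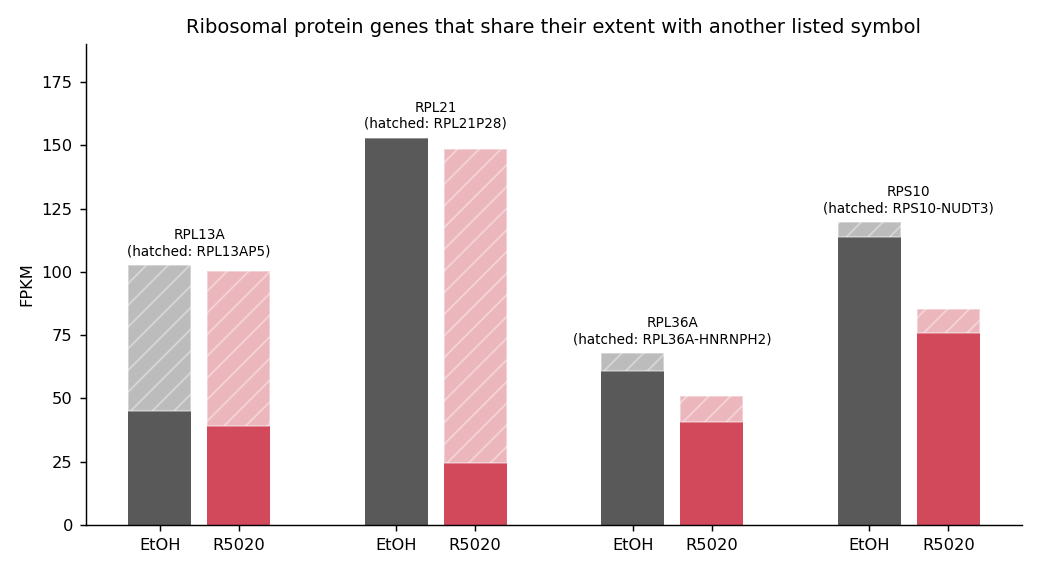
FPKM of 4 ribosomal protein genes (solid) and of the second symbol over the same gene (hatched), stacked for EtOH and R5020, 1 library each. The stacks of *RPL21* and *RPL13A* are nearly equal in height in both libraries, while those of *RPS10* and *RPL36A* are lower in R5020.

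Processed copies at other positions were a small addition for most genes. The data list 28 symbols made of a member and P with a number, of which 13 had an FPKM of at least 1 in either library. *RPS26P11* on chromosome X was at 35.7 and 18.6 (-0.90), with its parent *RPS26* at 36.4 and 26.1 (-0.46), and the sum went from 72.0 to 44.8 (-0.67). *RPSAP58* was at 37.1 and 41.7, and with it *RPSA* went from 117 to 140 (0.25). *RPL13AP20* was at 22.2 and 20.9. For these copies the direction was that of the parent. Of *RPL23A* 4 copies were retained, *RPL23AP64* at 11.1 and 10.4, *RPL23AP7* at 5.37 and 3.39, *RPL23AP53* at 1.35 and 1.55 and *RPL23AP82* at 1.21 and 0.812, beside 234 and 217 for *RPL23A* itself. The others, *RPL32P3*, *RPLP0P2*, *RPS10P7* and *RPS15AP10*, were at 2.36 or below. GENCODE lists 1575 copies for 76 of the 78 retained members, with a median of 13 and a maximum of 133 for *RPL21*, and their number was weakly related to FPKM in EtOH (rho 0.204 over 78 genes, as a description).

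Between isoforms, 50 of the 81 members had a single listed transcript and 8 had at least 2 above 0. *RPS24* showed the largest redistribution, with 28.7 percentage points of its FPKM placed on other transcripts in R5020. Its NM_033022 went from 84.9 to 0, NM_001142283 from 0 to 95.5 and NM_001142284 from 0 to 70.9, while NM_001026 went from 343 to 242 and NM_001142282 from 238 to 172. *RPL11* had NM_001199802 at 0 in EtOH and at 18.1 in R5020 (11.4 points), and *RPS3* moved by 9.22 points. The *RPS24* sum differed by much less than its isoforms, with a log2 change of -0.20. Without a replicate it was not tested whether these shifts exceed the error of splitting reads between near-identical transcripts.

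PR sites near the genes were counted from the nearest edge of a site to the extent of all transcripts of the gene (hg19). Of the 78 members 49 had a site within 50 kb (62.8%, Wilson 95% interval 51.7 to 72.7), against 52.7% of all retained genes. Sites over the gene itself were found at 5 members (6.41%, interval 2.77 to 14.1), against 22.5%. Ribosomal protein genes are short, and among the 2666 retained genes under 10 kb the share with a site over the gene was 14.9%, against 6.94% of the 72 members of that size (interval 3.003 to 15.2). Within 50 kb the shares among these short genes were 57.5% and 65.3%. A site within 1 kb of a transcript start was present for 4 members (5.13%), against 10.3% of 9672 retained genes. These intervals reflect counting alone and take each gene as independent, although neighbouring members can share a site.

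**Figure D4:**
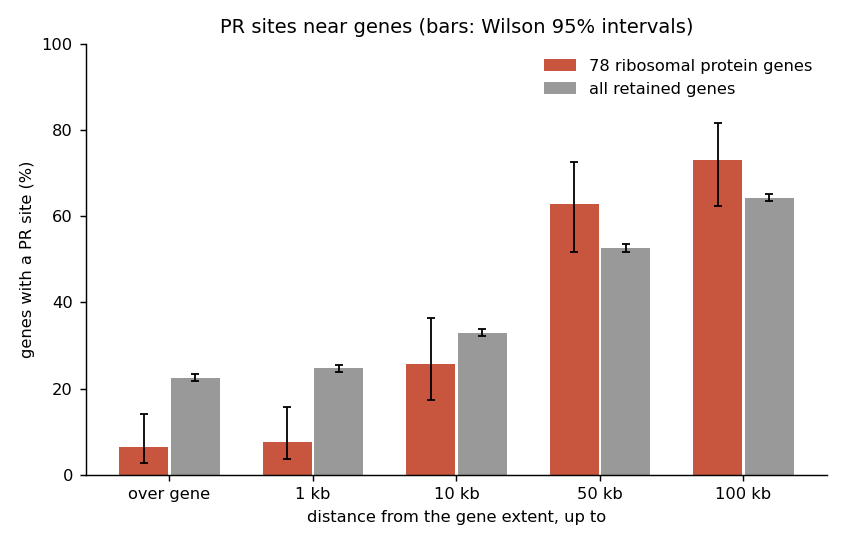
Share of genes with a PR site over the gene or within 1, 10, 50 and 100 kb of it, for 78 ribosomal protein genes and all 11018 retained genes, with Wilson 95% intervals. The share of ribosomal protein genes is lower over the gene (6.41% against 22.5%) and higher at 50 kb (62.8% against 52.7%).

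The 5 sites over members had scores, the −10 log10 p-value of the peak caller, from 59.4 to 108, where the 11181 sites ranged from 50 to 1965 with a median of 74.5. *RPL27A*, a 60S gene at 9.003 and 7.12, held the highest of these scores (108), with the site midpoint 173 nt past the deposited start. The site over *RPL7* (472 and 521; score 95.7) had its midpoint in an intron 204 nt past the start. The site over *RPL10A* (178 and 138; score 84.7) lay in an intron 301 nt past the start. For *RPS2* (158 and 149; score 65) the midpoint lay in a coding exon 249 nt past the start. The site of *RPL24* (229 and 198; score 59.4) lay in an intron 2035 nt from the start. Thus 4 of the 5 sites were close to the start, and the genes under them differed between the libraries by -0.37 to 0.14 (log2).

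In the 300 bases around the midpoints of these 5 sites no AGAACA or TGTTCT, the PR half-site on either strand, was found, while 17.7% of 11178 sites held one. With only 5 windows, this absence cannot be told apart from that share. The looser core ACANNNTGT was found in the *RPL10A* window and in 8.20% of all sites. CCGGAA or TTCCGG, the core recognised by ETS factors, was found in the windows of *RPL10A* and *RPL27A* and in 7.31% of all sites. ACANNNTGT can overlap both half-sites, and the matches below do not overlap one another. They are shown within 30 bases of the + strand (GRCh37) with the motif in capitals. They are the only such letters in these 5 windows, which are narrower than the sites themselves.
RPL10A core, chr6:35436583-35436612: gtctctcgcgACACCCTGTacgaggcggtg
RPL10A ETS, chr6:35436437-35436466: tctacttggtgtCCGGAAtctacgggggag
RPL27A ETS, chr11:8704262-8704291: cggcctctgtgaCCGGAAgtgaggcgtttt
A match is a description of the letters and not of binding.

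A further 15 members had a site within 10 kb but not over the gene, which made 20 of 78 (25.6%) against 33.0% of retained genes. The nearest were those of *RPL35A* (769 nt; 235 and 218), *RPL4* (1337 nt; 215 and 222) and *RPL41* (2696 nt). Next came *RPS14* (50.7 and 51.9), *RPS16* (48.8 and 38.6), *RPL32* (115 and 111), *RPL35* (296 and 263), *RPLP2*, *RPL19*, *RPS28* (40.3 and 34.2), *RPS19*, *RPL13*, *RPS21* (164 and 119), *RPL7A* (168 and 175) and *RPL23A*. Of the genes past 1.5-fold, *RPLP2* and *RPS19* were among these, *RPL18* and *RPS15* had a site within 50 kb, and *RPL21* had none.

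The other 29 members with a site within 50 kb included *RPL14*, *RPS29*, *RPS25*, *RPS27*, *RPS26*, *RPL8*, *RPL9*, *RPL29*, *RPS3*, *RPL38*, *RPL18*, *RPLP1*, *RPL28*, *RPS10*, *RPS4X*, *RPL12*, *RPLP0*, *RPS27L*, *RPL37A*, *RPL30*, *RPS15*, *RPL13A*, *RPL6*, *RPS20*, *RPS9*, *RPL10* and *RPL23*. The 48 distinct sites nearest to the 49 members had scores from 51.0 to 166 with a median of 73.4, close to that of all sites, and 7 of them reached 100. With sites of a score of at least 100 alone, 13 members (16.7%) had a site within 50 kb, against 18.1% of retained genes. The median change was -0.20 in the 49 members with a site within 50 kb and -0.17 in the 29 without.

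In the 300 bases around the RefSeq start (250 before and 50 after it, both strands), CCGGAA or TTCCGG was present in 57.8% of the 64 matched members, against 37.4% of retained genes. The GC box GGGCGG or CCGCCC was present in 59.4% against 78.7%, and TATAAA in 4.69% against 4.78%. AGAACA or TGTTCT was present in 15.6% against 12.3%, and ACANNNTGT in 0 of 64 (which allows a share of up to 4.69%) against 4.04%. The median change was -0.20 in the 46 genes with a TOP start and -0.23 in the 17 retained and matched genes without one.

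Other genes of the translation machinery were near level. The 21 retained genes of translation factors and other proteins with TOP mRNAs had a median change of 0.02, with none past 1.5-fold in either direction. The highest of them, *EEF1A1*, which brings aminoacyl-tRNA to the ribosome, was at 459 and 431. *NACA*, which binds nascent peptides, was at 313 and 349. Their median main transcript was 1508 nt. Of 8 retained symbols of ribosomal proteins that the symbol rule leaves out, 4 were below 0, the median change was -0.02 and 1, the read-through *RPS10-NUDT3* (0.62), was past 1.5-fold. The highest were *RPL36AL* at 238 and 199 and *FAU* at 97.3 and 92.0, and *RPL7L1* was at 18.96 and 23.7 (0.31).

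Most genes of ribosome biogenesis had a change above 0. The 46 retained genes had a median change of 0.23, and 38 of them (82.6%) were above 0, against 50.9% of all retained genes. At least 1.5-fold higher were 4 of them (8.70%), close to the 7.67% of all retained genes, and none was at least 1.5-fold lower. *RIOK1*, a kinase of late 40S maturation, was at 2.54 and 4.98 (0.76). *RRS1*, which acts in 60S assembly, was at 11.99 and 20.6 (0.74), and the helicase *DDX21* at 21.5 and 34.7 (0.67). *LTV1*, a 40S export factor, was at 3.72 and 6.12 (0.59). Their median main transcript was 2268 nt, in the class where other genes had a median change of 0.02. Of 22 retained regulators of TOP mRNAs and of ribosomal protein genes, *MYC*, a transcription factor that drives ribosome production, was the one past 1.5-fold, at 1.53 and 8.31 (1.88). *LARP1* was at 26.7 and 36.2 (0.43).

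The genes of oxidative phosphorylation, whose main transcripts are also short (median 806 nt), had a summed FPKM in R5020 of 85.3% of that in EtOH, beside 85.8% for the ribosomal protein genes. Without the 3 highest, *ATP5E* (745 and 539), *COX7C* (483 and 386) and *NDUFB1* (202 and 124), it was 93.3%. The median change was -0.09, with 46 of the 73 retained genes below 0 (63.0%), against -0.19 and 80.8% in the ribosomal protein genes. Of these 73 genes 4 (5.48%, against 4.14% of all retained genes) were at least 1.5-fold lower, *NDUFB2*, *ATP5D*, *NDUFB1* and *COX8A*, and none was as much higher. The sums of the mitochondrial ribosomal protein genes (97.6%; median 1160 nt) and of the proteasome subunits (98.5%; median 1502 nt) were nearly level.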

How the data were processed

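The authors used TopHat on hg19 for the RNA-seq reads, kept uniquely placed ones and estimated FPKM per transcript with Cufflinks. The deposited transcripts carry RefSeq identifiers, the annotation named in the study's results, while its methods name Ensembl. The deposited coverage (signal) served to express fragments, as coverage times length over 2 reads of 50 nt. These fragments gave the sums over all transcripts and the counting standard errors. For ChIP-seq the authors used Bowtie 1.1.2 and MACS with input DNA, which was not analysed here, and deposited sites with a score. Processing tools are those of the methods and the submitters' processing notes.

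FPKM was summed per symbol, with a pseudocount of 1, a minimum FPKM of 1 in at least 1 condition and a threshold of 1.5-fold. The FPKM intervals were not used. Sites were tied to genes within 50 kb. Copies and site features were read from GENCODE 44 (GRCh37), and starts from RefSeq. Named were the 10 highest members, those under FPKM 1, the 5 largest rises and falls, all past 1.5-fold, members with a listed copy at FPKM 1 or more, members with a site within 50 kb (values only for those within 10 kb) and examples of each list. Members and lists were chosen with earlier results of these data known. The tools were pysam 0.24.0, pandas 2.3.3, scipy 1.17.1, numpy 2.4.6 and matplotlib 3.10.9 under Python 3.11.15. The calling of changes and the site distances were checked on simulated data. The planted changes were much larger than the median change of the members. That check does not cover differences between cultures or the splitting of reads between symbols. Some genes that this rule names are not reported here.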

Additional observations from a re-analysis of the deposited data

How the results depend on the processing

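With 1 library per condition no replicate could be left out, and the FPKM values depend on how the authors split reads between symbols. No paired analysis was possible because each condition had 1 library and no test was run. The number of members at least 1.5-fold higher was 0 under every alternative run, and the median change stayed below 0 under each. The log2 ratio of the summed FPKM (-0.22) stayed below 0 wherever it was computed, which leaves out the pseudocount of 0.1, the removal of the 5 genes that share their extent and the length-class subtraction. The median moved to -0.0012 when the median of other genes of the same length class was subtracted. The number at least 1.5-fold lower was 5, and it was 1 at a threshold of 2-fold and 2 after that subtraction. When the listed copies were added it was again 5, with *RPS26* in place of *RPL21*. The SD of the change was 0.35, and it was 0.22 with the listed copies added, 0.21 with the symbols over the same gene added, 0.22 without *RPL21* and 0.22 without the 5 genes that share their extent. The share with a PR site within 50 kb was 62.8%, and it was 25.6% within 10 kb, 73.1% within 100 kb, 7.69% over the gene or within 1 kb and 16.7% with sites scoring at least 100. Rescaling R5020 by 0.992 left 65 of the 78 members below 0. The shared-extent, length-class and left-out-gene settings, the genes under 10 kb, the 1 kb window and the comparison genes with a mean FPKM of at least 20 were chosen after seeing the data.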

Other observations

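The host genes of small nucleolar RNAs, which guide the modification of rRNA and many of which carry TOP starts, did not move together. Of 10 retained host genes 5 were below 0, and the median change was -0.09. *SNHG7* fell from an FPKM of 37.7 to 17.7 (log2 -1.05) and was the one gene of the 10 past 1.5-fold. Of all retained genes 4.14% were at least 1.5-fold lower and 7.67% as much higher. *SNHG1* was at 9.50 and 14.5 (0.56) and *SNHG6* at 57.3 and 44.4 (-0.36).

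Of the 5 ribosomal protein genes past 1.5-fold, *RPS15*, *RPL18* and *RPS19* lie on chromosome 19, which was seen after the values were known. The 12 retained members on chromosome 19 had a median change of -0.21, with 11 below 0, against -0.18 in the 66 members elsewhere. The other 751 retained genes on chromosome 19 had a median of -0.10, against 0.0053 over all retained genes.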
